A study of Mus musculus with 48 samples.

Results

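Ketone bodies are small water-soluble fuels that the liver makes from the acetyl-CoA of fatty acid oxidation, mainly during fasting, and exports to other organs. Bdh1, Acat1 and Slc16a1 were described in livers with and without hepatocyte p110α, a catalytic subunit of PI3K, one of the enzymes of insulin signalling in hepatocytes. They were taken by gene symbol from all probes of the array that are not controls, which gave 3 genes of 37074. The 3 genes were measured by 4 probes, 2 for Bdh1 and 1 each for Acat1 and Slc16a1. All 4 probes were well above background on all 48 arrays, and the 3 genes were among the 20486 genes that passed the filter on dim probes.

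Acat1 is the mitochondrial thiolase that joins acetyl-CoA units into acetoacetyl-CoA, the first step of ketogenesis, and splits it again when ketone bodies are used. Bdh1, the mitochondrial 3-hydroxybutyrate dehydrogenase, interconverts acetoacetate and 3-hydroxybutyrate, the main circulating ketone body. Slc16a1 encodes MCT1, a plasma membrane transporter that carries lactate, pyruvate and ketone bodies together with protons and moves either way along the gradient. In the fasted liver, low insulin and high fatty acid supply are known to favour ketogenesis, while the fed liver directs acetyl-CoA to oxidation and lipid synthesis.

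The samples were livers of male mice, 1 array a mouse and 6 mice in each of 8 groups, so that replicates were separate animals. p110αhep-/- mice (LKO) carried albumin-Cre and floxed alleles of p110α, and their floxed littermates without Cre, p110αhep+/+ (LWT), were the controls, so that all groups carried the floxed alleles. The albumin promoter drives Cre in hepatocytes, and other liver cells keep p110α. Mice received a control diet (CTRL) or a high-fat diet (HFD) in which fat gave 60% of the calories, starting at an age of 12 weeks and lasting 12 weeks, and were then fed or fasted for 24 h and killed at ZT16, which is 16 h after lights on. Values are log2 normalized signals from 1-colour arrays, and a difference of 1 is a doubling of the signal. The percentage of spots well above background lay between 52.26% and 59.29% over the arrays, and no spot was saturated. Each of 6 slides held 1 array of each group, and the slides fell into 2 washing batches of 3. Mice on a slide were separate animals, and their deviations from the group means correlated at 0.01 on average (168 pairs). Signs counted by slide are therefore a description and no paired test. The 6 hepatocyte markers were measured in every group, with a summed level between 20.34 and 20.48. This sum was carried mostly by Alb and Serpina1a, with means of 18.89 and 18.82, while Tat ran from 14.25 to 16.60. Whole liver also holds other cells, and fewer cells of a type cannot be told apart from less RNA per cell.

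The deletion removes exons 18 and 19 of Pik3ca, the gene of p110α. The 1 probe of Pik3ca, at chr3:32364747-32364806 (mm9), was higher in p110αhep-/- mice by 0.39 in the CTRL fed groups (adjusted p = 0.000403), by 0.58 in the HFD fed groups (adjusted p = 2.73e-07) and by 0.25 in the HFD fasted groups (adjusted p = 0.0172). In the CTRL fasted groups the difference was 0.08 (adjusted p = 0.523). Whether this probe lies in the deleted exons was not determined here, so it does not check the genotype labels.

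The promoters are shown as a description of the genes, and shared control of the members was not tested. RefSeq (GRCm38.p6) gave windows from 250 bases before to 50 after a start site for 2 of the 3 members, 2 for Bdh1 and 1 for Slc16a1. Acat1 was not matched. Capitals mark each match, on either strand, to a searched word. The window of the first start site of Bdh1 is chr16:31422047-31422346 (plus strand), the second at chr16:31428503-31428802 (plus strand) and that of Slc16a1 at chr3:104638414-104638713 (plus strand).
Bdh1 start site 1: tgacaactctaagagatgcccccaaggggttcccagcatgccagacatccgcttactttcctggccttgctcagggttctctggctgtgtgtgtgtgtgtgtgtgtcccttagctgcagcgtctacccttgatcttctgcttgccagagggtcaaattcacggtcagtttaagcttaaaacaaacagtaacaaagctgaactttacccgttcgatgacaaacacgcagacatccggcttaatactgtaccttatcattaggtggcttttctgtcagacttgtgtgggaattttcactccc
Bdh1 start site 2: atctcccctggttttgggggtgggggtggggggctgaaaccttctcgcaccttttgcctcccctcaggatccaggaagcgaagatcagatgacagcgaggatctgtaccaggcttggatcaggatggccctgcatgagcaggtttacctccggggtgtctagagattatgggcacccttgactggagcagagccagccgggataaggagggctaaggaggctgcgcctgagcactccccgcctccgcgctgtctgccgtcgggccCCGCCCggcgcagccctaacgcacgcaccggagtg
Slc16a1 start site: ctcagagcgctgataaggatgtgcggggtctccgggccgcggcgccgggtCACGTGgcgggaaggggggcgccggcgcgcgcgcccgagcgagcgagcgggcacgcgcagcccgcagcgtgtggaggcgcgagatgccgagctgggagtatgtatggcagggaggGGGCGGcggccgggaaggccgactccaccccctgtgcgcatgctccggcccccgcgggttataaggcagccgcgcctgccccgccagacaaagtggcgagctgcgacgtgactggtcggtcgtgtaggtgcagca

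The words searched on both strands were the nuclear receptor word AGGTCA, the FOXO word GTAAACA, the E-box CACGTG, the GC box GGGCGG, the cyclic AMP response element TGACGTCA, the CCAAT box CCAAT, the TATA box TATAAA and, by name, DR1, a direct repeat of the nuclear receptor word. DR1 holds that word, so that the searches for these overlap. In Slc16a1 the E-box began 200 bases before the start site and a GC box 85 bases before it. The second window of Bdh1 held a GC box on the minus strand, beginning 15 bases after the start site, and its first window held none of the words. Of the 32851 promoters of the same length, 7.15% held the E-box and 35.7% the GC box. The words without a match in these windows were held by 16.3% (AGGTCA), 3.65% (GTAAACA), 1.79% (TGACGTCA), 37.4% (CCAAT), 13.6% (TATAAA) and 0.0396% (DR1) of promoters. GC content was 48.3% and 63.7% in the windows of Bdh1 and 73.7% in that of Slc16a1, beside a median of 52.7% over all promoters. These are matches of letters and not measured binding.

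The brighter probe of Bdh1 lies at chr16:31457378-31457437, the other at chr16:31457249-31457308, the probe of Acat1 at chr9:53389868-53389927 on the minus strand and that of Slc16a1 at chr3:104460941-104461000, all in mm9. Each gene is given by its brightest probe. Over the 48 arrays Bdh1 lay between 13.70 and 15.09, Acat1 between 12.35 and 13.99 and Slc16a1 between 10.79 and 12.17. These levels depend on the probe and do not rank the genes against each other.

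**Figure D1:**
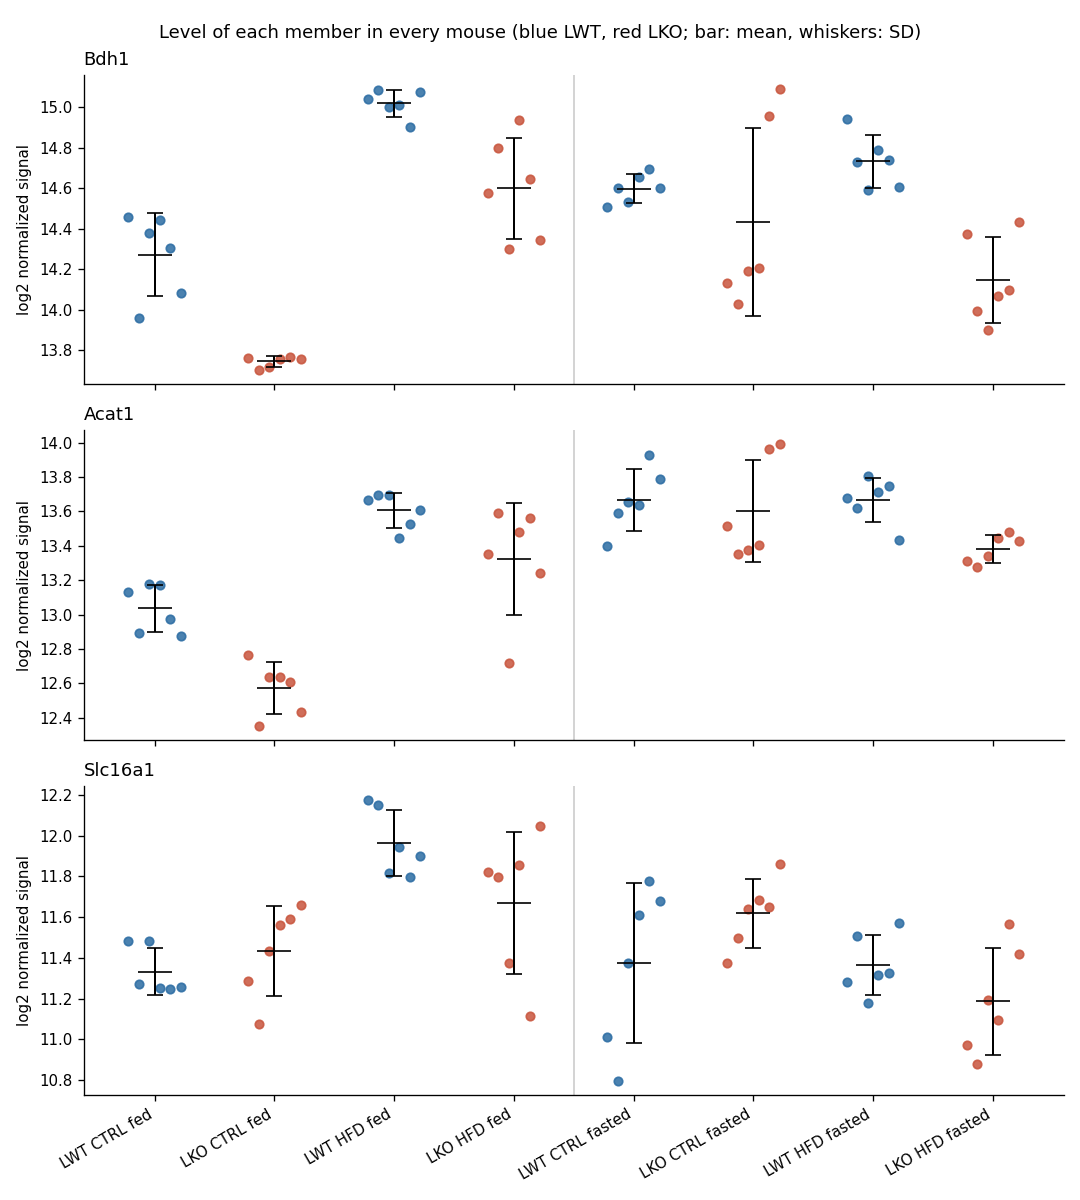
Log2 normalized signal of Bdh1, Acat1 and Slc16a1 (y axes) in each of the 8 groups (x axis), with 1 point a mouse, blue for p110αhep+/+ (LWT) and red for p110αhep-/- (LKO), bars at the mean and whiskers at the SD (n = 6). CTRL fed p110αhep-/- mice had the lowest mean of Bdh1 (13.74) and of Acat1 (12.57), and in the CTRL fasted p110αhep-/- group 2 mice lay above the other 4 for both genes.

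The lowest and the highest group differed by 1.28 in Bdh1, 1.09 in Acat1 and 0.78 in Slc16a1 (log2, difference of group means). Bdh1 was highest in HFD fed p110αhep+/+ mice (15.02 ± 0.07, SD, n = 6), followed by HFD fasted p110αhep+/+, HFD fed p110αhep-/-, CTRL fasted p110αhep+/+, CTRL fasted p110αhep-/-, CTRL fed p110αhep+/+ and HFD fasted p110αhep-/- mice, and lowest in CTRL fed p110αhep-/- mice (13.74 ± 0.03). In this order only the first pair of neighbours and the last pair differed by more than the larger of their SDs. Acat1 was highest in fasted p110αhep+/+ mice, at 13.67 ± 0.13 on HFD and 13.67 ± 0.18 on CTRL, then HFD fed p110αhep+/+, CTRL fasted p110αhep-/-, HFD fasted p110αhep-/- and HFD fed p110αhep-/- mice. It was lowest in the fed groups on CTRL, and only the last pair of neighbours, CTRL fed p110αhep+/+ and CTRL fed p110αhep-/- mice, differed by more than their SDs. Slc16a1 ran from 11.96 ± 0.16 in HFD fed p110αhep+/+ mice, through HFD fed, CTRL fasted and CTRL fed p110αhep-/- mice and then CTRL fasted, HFD fasted and CTRL fed p110αhep+/+ mice, to 11.19 ± 0.26 in HFD fasted p110αhep-/- mice, and no neighbours in its order differed by more than their SDs.

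The fasting comparison asks how 24 h without food changed hepatic transcripts in each genotype on each diet. On CTRL, fasting raised Acat1 and Bdh1 in both genotypes, and on HFD it lowered Slc16a1 and Bdh1 in both, with Acat1 not called. The Bdh1 calls in p110αhep+/+ mice were lost in 5 (CTRL) and 9 (HFD) of 16 other settings. Of the 12 member comparisons 8 were called (limma, adjusted p no higher than 0.05), and the fasted mice were higher in 4 of these and lower in 4. All genes are the background for each count. In p110αhep+/+ mice 2 of 3 members were called on CTRL, where 32.6% of all genes were, and 2 of 3 on HFD, where 28.6% were. For p110αhep-/- mice the counts were 2 of 3 on CTRL (35.5% of all genes) and 2 of 3 on HFD (28.6% of all genes).

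Acat1, which opens the pathway, had in CTRL fed p110αhep+/+ mice a lowest value of 12.88, a median of 13.05 and a highest of 13.18. The CTRL fasted p110αhep+/+ mice ran from 13.40 over a median of 13.64 to 13.93. All fasted mice were above all fed mice, and the increase was 0.63 ± 0.09 (SE, log2; 1.54-fold; adjusted p = 9.17e-07). The p110αhep-/- mice on CTRL ran from 12.35 over 12.62 to 12.77 when fed and from 13.35 over 13.46 to 13.99 when fasted. Again the groups did not overlap, and Acat1 rose by 0.94 ± 0.09 (1.92-fold; adjusted p = 9.19e-11), on 6 of 6 slides. On HFD the values of fed and fasted mice ran through each other in both genotypes. HFD fed p110αhep+/+ mice lay between 13.45 and 13.70 with a median of 13.64, and HFD fasted ones between 13.44 and 13.81 with a median of 13.70. The difference was 0.09 with a 95% confidence interval of -0.09 to 0.27 (adjusted p = 0.506). The HFD fed p110αhep-/- group ran from 12.72 over 13.42 to 13.59 and the HFD fasted group from 13.28 over 13.39 to 13.48, a difference of -0.04 with an interval of -0.25 to 0.16 (adjusted p = 0.808).

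Bdh1, which makes 3-hydroxybutyrate, moved up with fasting on CTRL and down on HFD. In p110αhep+/+ mice on CTRL it ran from 13.96 over a median of 14.34 to 14.46 in the fed group and from 14.51 over 14.60 to 14.69 in the fasted group. The lowest fasted mouse was just above the highest fed one, and the rise was 0.30 ± 0.11 (adjusted p = 0.0299). Fed p110αhep-/- mice on CTRL formed a narrow group, from 13.70 over 13.76 to 13.77, and the fasted group ran from 14.03 over 14.20 to 15.09. These groups did not overlap either, and the rise was 0.58 ± 0.11 (adjusted p = 4.46e-05). The fasted p110αhep-/- group was split, with mice 5 and 6 at 14.96 and 15.09 and the other 4 between 14.03 and 14.20, and the same mice held the highest Acat1 values, 13.96 and 13.99. Without these 2 mice, left out after the data were seen, the rise was 0.40 for Bdh1 (adjusted p = 0.000222) and 0.82 for Acat1 (adjusted p = 4.44e-10). The fitted differences weight each array by its quality and so can differ from the difference of the plain group means.

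On HFD the fed p110αhep+/+ mice held Bdh1 between 14.90 and 15.09 with a median of 15.03, and the fasted ones between 14.59 and 14.94 with a median of 14.73. The groups overlapped narrowly, and the fall was -0.30 ± 0.10 (adjusted p = 0.0292). This call was lost in 9 of 16 other settings, among them the processed signal (-0.22, adjusted p = 0.112), median scaling (-0.21, adjusted p = 0.149) and no array weights (-0.29, adjusted p = 0.10). Among p110αhep-/- mice on HFD the fed group ran from 14.30 over 14.61 to 14.94 and the fasted group from 13.90 over 14.08 to 14.43. The groups overlapped, the fasted mouse was lower on 5 of 6 slides, and the fall was -0.52 ± 0.12 (1.43-fold; adjusted p = 0.000996). The calls in p110αhep-/- mice held on leaving out any array, while both calls in p110αhep+/+ mice were lost on leaving out 1 of several arrays. On CTRL these were fed mice 2 and 6 and fasted mice 4 and 5 (0.25 to 0.29, adjusted p of 0.0523 to 0.0936), and on HFD fed mice 2 and 6 and fasted mice 2 and 3 (-0.29 to -0.26, adjusted p of 0.0547 to 0.092). Within the washing batches neither p110αhep+/+ call remained, with 0.27 and 0.30 on CTRL (adjusted p = 0.302 and 0.159) and -0.29 and -0.27 on HFD (adjusted p = 0.265 in each). The fall in p110αhep-/- mice on HFD was -0.67 (adjusted p = 0.00962) in batch 1 and -0.33 (adjusted p = 0.247) in batch 2.

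The dimmer probe of Bdh1 followed the brighter one, with a Pearson r of 0.985 over the 48 arrays and a level 0.95 lower on average. Its group means ran from 12.82 in CTRL fed p110αhep-/- mice to 14.04 in HFD fed p110αhep+/+ mice, the same groups that were lowest and highest by the brighter probe. It also missed the threshold in p110αhep+/+ mice, with a fasting difference of 0.30 on CTRL (adjusted p = 0.0533) and of -0.28 on HFD (adjusted p = 0.0712).

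Slc16a1, the transporter, was lower after fasting on HFD and was not called on CTRL. HFD fed p110αhep+/+ mice ran from 11.80 over a median of 11.92 to 12.17, and HFD fasted ones from 11.18 over 11.32 to 11.57. Every fasted mouse was below every fed one, and the fall was -0.60 ± 0.12 (1.52-fold; adjusted p = 0.000194). Among p110αhep-/- mice on HFD the fed group ran from 11.12 over 11.81 to 12.05 and the fasted group from 10.88 over 11.14 to 11.56. The groups overlapped, the fasted mouse was lower on 6 of 6 slides, and the fall was -0.53 ± 0.14 (1.44-fold; adjusted p = 0.00442). It was -0.33 (adjusted p = 0.323) within washing batch 1 and -0.69 (adjusted p = 0.0231) within batch 2. On CTRL the fed and fasted p110αhep+/+ mice covered 11.25 to 11.48 and 10.79 to 11.78, with medians of 11.26 and 11.49, and the p110αhep-/- mice 11.07 to 11.66 and 11.37 to 11.86, with medians of 11.50 and 11.65. The fasting difference was 0.05 in p110αhep+/+ mice (interval of -0.20 to 0.31, adjusted p = 0.795) and 0.14 in p110αhep-/- mice (interval of -0.12 to 0.40, adjusted p = 0.435).

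**Figure D2:**
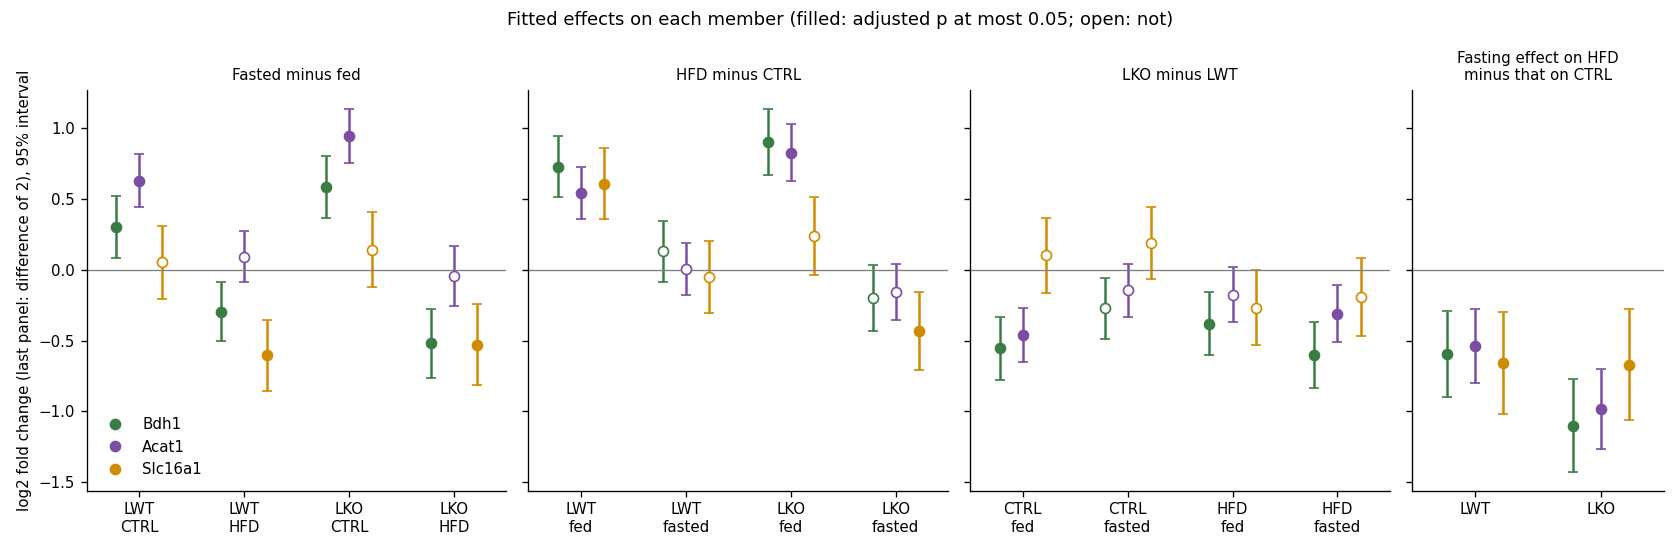
Fitted log2 differences (y axes) of Bdh1, Acat1 and Slc16a1 for fasting, HFD and genotype in each setting (x axes, LWT for p110αhep+/+ and LKO for p110αhep-/-), with bars for the 95% confidence interval, filled symbols where the adjusted p was at most 0.05 and open symbols elsewhere. The fasting differences of Bdh1 are above 0 on CTRL (0.30 and 0.58) and below 0 on HFD (-0.30 and -0.52), and no genotype difference above 0 is filled.

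The diet comparison asks what 12 weeks of HFD did in each state. In fed mice HFD raised Bdh1 and Acat1 in both genotypes and Slc16a1 in p110αhep+/+ mice. In fasted mice 1 call was made, a lower Slc16a1 in p110αhep-/- mice. In all, 6 of 12 member comparisons were called, 5 higher and 1 lower on HFD. In fed p110αhep+/+ mice 3 of 3 members were called, beside 24.0% of all genes, and in fed p110αhep-/- mice 2 of 3, beside 12.3%. In fasted p110αhep+/+ mice limma called 0 of 3 (and 0 at an unadjusted p under 0.05), beside 16.0% of all genes, and in fasted p110αhep-/- mice 1 of 3, beside 10.8%.

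Bdh1 was higher on HFD in fed p110αhep+/+ mice by 0.73 ± 0.11 (1.66-fold; adjusted p = 1.82e-06) and in fed p110αhep-/- mice by 0.90 ± 0.12 (1.87-fold; adjusted p = 4.24e-07). In both genotypes every fed HFD mouse was above every fed CTRL mouse. A larger rise than that of Bdh1 was seen in 350 genes in p110αhep+/+ and in 111 genes in p110αhep-/- mice. Within the washing batches the rise was 0.75 and 0.66 in p110αhep+/+ and 0.98 and 0.75 in p110αhep-/- mice, the last without a call (adjusted p = 0.0527). In fasted mice the HFD difference of Bdh1 was 0.13 (interval of -0.08 to 0.35, adjusted p = 0.44) and -0.20 (interval of -0.43 to 0.03, adjusted p = 0.299).

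Acat1 was higher on HFD in the fed state by 0.54 ± 0.09 in p110αhep+/+ mice (1.45-fold; adjusted p = 2.02e-05), with no overlap. In p110αhep-/- mice it was higher by 0.83 ± 0.10 (1.77-fold; adjusted p = 1.53e-07), and mouse 3 of the HFD group, at 12.72, was the only HFD mouse within the range of the CTRL mice. In fasted mice the HFD difference of Acat1 was 0.00 in p110αhep+/+ (interval of -0.18 to 0.19, adjusted p = 0.987) and -0.16 in p110αhep-/- mice (adjusted p = 0.342). The group means of Acat1 lay between 13.38 and 13.67 in fasted mice and between 12.57 and 13.61 in fed mice.

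Slc16a1 rose with HFD in fed p110αhep+/+ mice by 0.61 ± 0.13 (1.52-fold; adjusted p = 0.000366), and the groups did not overlap. Within the washing batches the rise was 0.82 and 0.41, the latter without a call (adjusted p = 0.157). In fed p110αhep-/- mice the difference was 0.24 (interval of -0.04 to 0.52, adjusted p = 0.303), with the HFD mouse higher on 4 of 6 slides, and it was 0.16 without HFD mouse 6, 0.38 without HFD mouse 5, and 0.0241 and 0.41 within the washing batches, with no call. In fasted p110αhep-/- mice Slc16a1 was lower on HFD by -0.43 ± 0.14 (1.35-fold; adjusted p = 0.0326) on 6 of 6 slides. This call was lost on leaving out CTRL fasted mouse 3, 4 or 6 or HFD fasted mouse 1, 2 or 3 (-0.43 to -0.34, adjusted p of 0.0567 to 0.147). In fasted p110αhep+/+ mice the difference was -0.05 (adjusted p = 0.829).

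The genotype comparison asks what the loss of hepatocyte p110α did at each diet and state. Bdh1 and Acat1 were lower in p110αhep-/- mice wherever they were called, and Slc16a1 was not called in any of the 4 settings. Of the 12 member comparisons 5 were called, all 5 lower in p110αhep-/- mice, and 1 of them passed a fold change of 1.5. In the CTRL fed groups 2 of 3 members were called, beside 21.7% of all genes. In the CTRL fasted groups limma called 0 of 3, beside 24.9% of all genes, and 1 of 3, Bdh1, had an unadjusted p under 0.05. In the HFD fed groups 1 of 3 was called (33.0% of all genes) and in the HFD fasted groups 2 of 3 (36.9% of all genes).

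Bdh1 in CTRL fed mice ran from 13.96 to 14.46 in p110αhep+/+ and from 13.70 to 13.77 in p110αhep-/- mice. All p110αhep-/- mice lay below all p110αhep+/+ mice, and the difference was -0.56 ± 0.11 (1.47-fold; adjusted p = 0.000251). In HFD fasted mice, with 14.59 to 14.94 against 13.90 to 14.43, the groups were also apart, at -0.60 ± 0.11 (1.52-fold; adjusted p = 5.73e-05). In HFD fed mice the groups overlapped, p110αhep-/- mice were lower on 6 of 6 slides, and the difference was -0.38 ± 0.11 (adjusted p = 0.00715). Within the washing batches the HFD fed difference was -0.33 (adjusted p = 0.145) and -0.49 (adjusted p = 0.065), and with the processed signal it was -0.26 (adjusted p = 0.0598). In CTRL fasted mice the difference was -0.27 (interval of -0.49 to -0.06, adjusted p = 0.0579), with the p110αhep-/- mouse lower on 4 of 6 slides. The call moved with the split group and with the filter. With only probes above background on all arrays the difference was -0.29 (adjusted p = 0.0354). Without mouse 6 of the CTRL fasted p110αhep-/- group the difference was -0.38 (adjusted p = 0.00257), without mouse 5 it was -0.37 (adjusted p = 0.00436), and without both it was -0.46 (adjusted p = 4.10e-05).

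Acat1 was lower in CTRL fed p110αhep-/- mice by -0.46 ± 0.10 (1.38-fold; adjusted p = 0.000408), and the groups, at 12.88 to 13.18 and 12.35 to 12.77, did not overlap. In HFD fasted mice it was lower by -0.31 ± 0.10 (1.24-fold; adjusted p = 0.0121) on 5 of 6 slides, and within the washing batches the difference was -0.19 (adjusted p = 0.309) and -0.40 (adjusted p = 0.0587). The difference was -0.18 in HFD fed mice (interval of -0.37 to 0.02, adjusted p = 0.163; -0.28 without array weights, adjusted p = 0.0465) and -0.15 in CTRL fasted mice (interval of -0.33 to 0.04, adjusted p = 0.267). Without mice 5 and 6 of the CTRL fasted p110αhep-/- group the last was -0.27 and called (adjusted p = 0.0159), which brought the genotype calls to 7.

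Slc16a1 differed between the genotypes by 0.10 in CTRL fed (interval of -0.16 to 0.37, adjusted p = 0.644), 0.19 in CTRL fasted (interval of -0.07 to 0.44, adjusted p = 0.302), -0.27 in HFD fed (interval of -0.53 to -0.0037, adjusted p = 0.118) and -0.19 in HFD fasted mice (interval of -0.47 to 0.08, adjusted p = 0.281). The HFD fed difference was -0.59 (adjusted p = 0.0349) within washing batch 1 and 0.02 (adjusted p = 0.953) within batch 2.

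Some markers of other liver cells differed by genotype. Of all genes 21.7%, 24.9%, 33.0% and 36.9% were called in CTRL fed, CTRL fasted, HFD fed and HFD fasted mice. The 5 cholangiocyte markers Krt7, Krt19, Epcam, Sox9 and Spp1 were lower in p110αhep-/- mice in 3 of 5 cases in CTRL fed and in 4 of 5 in each of CTRL fasted, HFD fed and HFD fasted mice. Their summed level was 10.50 to 12.40 over the p110αhep+/+ groups and 9.13 to 10.14 over the p110αhep-/- groups. This sum was carried by Spp1, with a mean of 10.04 over all arrays, while the defining markers Krt7, Krt19 and Epcam had means of 5.78, 6.41 and 5.50. Of the 5 endothelial markers, 1 was higher and 1 lower in p110αhep-/- mice in CTRL fed and in HFD fed mice, so that they had no common direction there. In CTRL fasted mice 2 were higher and in HFD fasted mice 4. Their summed level was 13.40 to 14.14 over the p110αhep+/+ groups and 13.90 to 14.26 over the p110αhep-/- groups, and the groups did not overlap in CTRL fasted mice (13.63 to 14.05 and 14.06 to 14.23). Of the 5 stellate markers, 1 was higher and 1 lower in CTRL fed, HFD fed and HFD fasted mice, and 1 was lower in CTRL fasted mice. The erythroid markers were also apart in CTRL fasted mice, with a summed level of 12.67 to 13.57 in p110αhep+/+ and 11.82 to 12.51 in p110αhep-/- mice and 1 of 2 called lower. The part of these markers in the genotype differences of Bdh1 and Acat1 was not tested. The 2 measured erythroid markers were lower in fasted than in fed p110αhep-/- mice on CTRL, with a summed level of 12.47 to 13.22 in the fed and 11.82 to 12.51 in the fasted group. Of the cholangiocyte markers 3 of 5 were lower in fasted mice in each genotype on CTRL and 1 of 5 in each on HFD. Their summed level in p110αhep-/- mice was 9.55 to 10.06 fed and 9.13 to 9.52 fasted on CTRL. On HFD it was 9.81 to 10.14 fed and 9.25 to 9.82 fasted. Of the 6 hepatocyte markers, 2 rose and 1 fell with fasting in p110αhep+/+ mice on CTRL, and 3 rose and 1 fell in p110αhep-/- mice. On HFD 3 and 2 of them rose and 0 fell. Fasting changed 32.6% and 35.5% of all genes on CTRL and 28.6% in each genotype on HFD. The part of these marker lists in the fasting differences of the members was not tested. With HFD in p110αhep+/+ mice 1 of 5 cholangiocyte markers was higher in each state, where 24.0% (fed) and 16.0% (fasted) of all genes were called. The summed level of the 5 was 10.64 to 11.88 on CTRL and 11.31 to 12.40 on HFD in fed mice. In fasted mice it was 10.50 to 11.22 and 11.18 to 11.88. The part of the cholangiocyte markers in the HFD differences of the members was not tested.

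Interactions ask whether an effect differed between settings, by a test of the difference itself. The members were called only in the diet by fasting interaction, for each of the 3 genes in both genotypes. Of 18 member comparisons 6 were called, all 6 negative, so that the fasted minus fed difference was lower on HFD than on CTRL. This does not mean a smaller change in each gene, since Slc16a1 fell on HFD and was not called on CTRL. In p110αhep+/+ mice 3 of 3 members were called, beside 2.36% of all genes, and in p110αhep-/- mice 3 of 3, beside 8.0%. The genotype interactions had no called member. Limma called 0 of 3 for genotype by diet in fed mice (3.03% of all genes), 0 of 3 in fasted mice (5.09%), 0 of 3 for genotype by fasting on CTRL (3.97%) and 0 of 3 on HFD (3.49%). An unadjusted p under 0.05 was reached in 4 of these 12 tests, those of Acat1 for genotype by diet in fed mice and genotype by fasting on CTRL, and of Bdh1 and Slc16a1 for genotype by diet in fasted mice. These interactions combine the same arrays as the comparisons above and are no independent measurement of them.

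**Figure D3:**
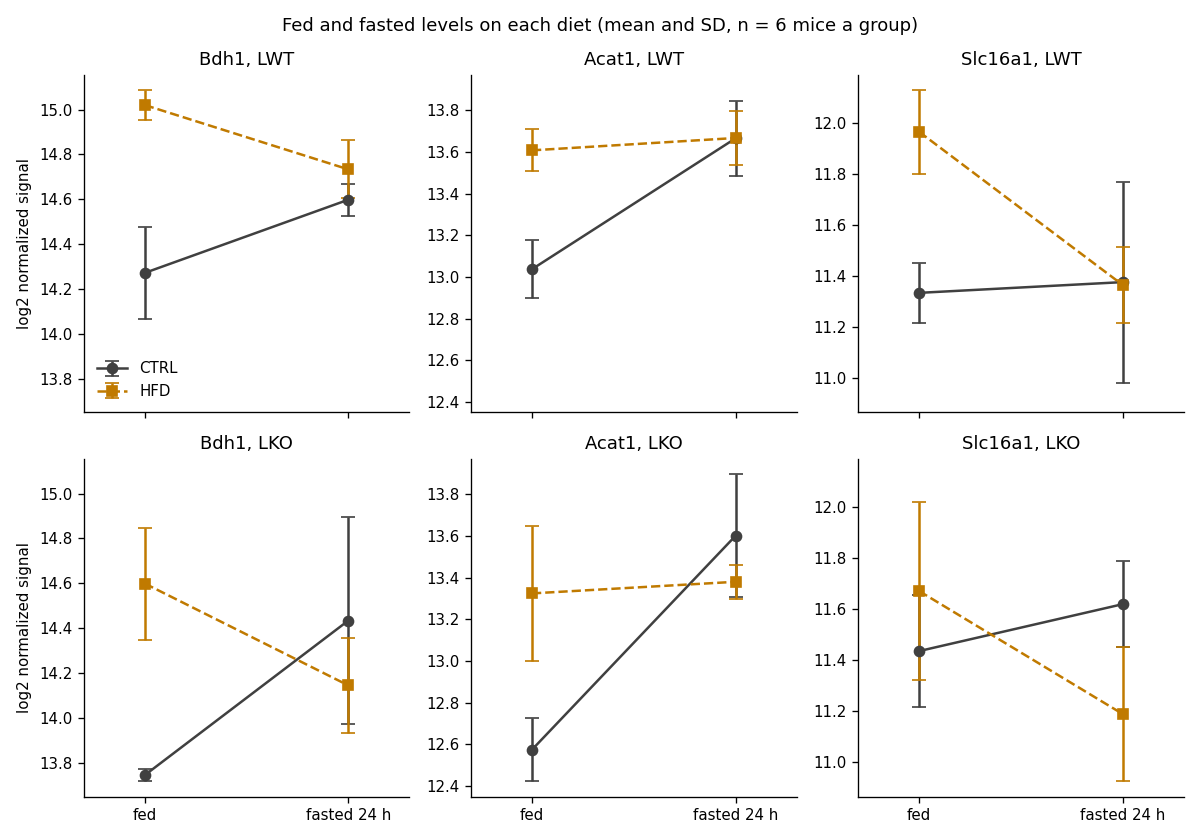
Log2 normalized signal (y axes) of Bdh1, Acat1 and Slc16a1 in fed and fasted mice (x axes) of each genotype (LWT for p110αhep+/+, LKO for p110αhep-/-), with a line for each diet joining group means and whiskers for the SD (n = 6). The Acat1 means go from 13.04 to 13.67 (LWT) and 12.57 to 13.60 (LKO) on CTRL and from 13.61 to 13.67 and 13.32 to 13.38 on HFD, and the Slc16a1 means from 11.33 to 11.37 and 11.43 to 11.62 on CTRL and from 11.96 to 11.36 and 11.67 to 11.19 on HFD.

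The fasting difference of Bdh1 on HFD minus that on CTRL was -0.60 ± 0.15 in p110αhep+/+ (interval of -0.90 to -0.29, adjusted p = 0.0243) and -1.10 ± 0.16 in p110αhep-/- mice (interval of -1.43 to -0.77, adjusted p = 8.35e-06). Acat1 gave -0.54 ± 0.13 (interval of -0.80 to -0.28, adjusted p = 0.018) and -0.99 ± 0.14 (interval of -1.27 to -0.70, adjusted p = 3.97e-06). Slc16a1 gave -0.66 ± 0.18 (interval of -1.02 to -0.30, adjusted p = 0.0365) and -0.67 ± 0.19 (interval of -1.06 to -0.28, adjusted p = 0.0242). In each of these 6 cases the sign was the same on 6 of 6 slides. The genes were not compared with each other by a test. By the calls, Bdh1 rose with fasting on CTRL and fell on HFD, though its calls in p110αhep+/+ mice did not hold in all settings. Acat1 rose on CTRL and was not called on HFD, and Slc16a1 was not called on CTRL and fell on HFD.

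In p110αhep+/+ mice the interaction calls were lost in 7 of 16 other settings for Bdh1, 4 of 15 for Acat1 and 7 of 15 for Slc16a1, among them the fits without array weights or without the filter on dim probes. The dimmer probe of Bdh1 gave -0.57 there (adjusted p = 0.0555). In p110αhep-/- mice the interaction calls of Bdh1 and Acat1 held on leaving out any array. In p110αhep+/+ mice the call of Bdh1 was lost without CTRL fasted mouse 5, CTRL fed mouse 6 or HFD fasted mouse 3 (adjusted p of 0.051 to 0.0585), and that of Acat1 without CTRL fasted mouse 5 (-0.47, adjusted p = 0.0518). The Slc16a1 call in p110αhep+/+ mice was lost without any of CTRL fasted mice 4, 5 and 6, CTRL fed mice 4, 5 and 6, HFD fed mice 1, 2 and 6 and HFD fasted mice 1, 3 and 4 (-0.66 to -0.54, adjusted p of 0.0502 to 0.112). Its call in p110αhep-/- mice was lost without HFD fasted mouse 1 or 2 or HFD fed mouse 2 or 6 (adjusted p of 0.0524 to 0.0716). Within the washing batches the interaction in p110αhep-/- mice was -1.17 and -0.92 for Bdh1, -1.0 and -0.88 for Acat1 and -0.35 and -0.91 for Slc16a1, with calls for Bdh1 and Acat1 in batch 1 (adjusted p = 0.00484 and 0.00242). In p110αhep+/+ mice it was -0.55 and -0.57, -0.54 and -0.58, and -0.72 and -0.68, with no call in either batch.

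The other genes of the pathway were described by 4 lists, of which 17 genes passed the filter on dim probes: 1 of 2 for ketogenesis, 2 of 4 for the use of acetoacetate, 5 of 6 thiolases and 9 of 11 for monocarboxylate transport and its chaperones. Acat2, the listed thiolase left out, had no probe under that symbol, and all 5 thiolases on the array passed. Slc16a8 and Emb, among the transport genes, lay near background and passed through only some groups. With fasting on CTRL, 4 of the 17 rose and 3 fell in p110αhep+/+ mice (7 called, where 32.6% of all genes were), and 6 rose and 5 fell in p110αhep-/- mice (11 called, where 35.5% of all genes were). On HFD 2 rose and 3 fell in p110αhep+/+ mice (5 called), and 1 rose and 6 fell in p110αhep-/- mice (7 called), where 28.6% of all genes were called in either genotype. With HFD 9 rose and 2 fell in fed and 7 rose and 0 fell in fasted p110αhep+/+ mice, and 10 rose and 2 fell in fed and 4 rose and 3 fell in fasted p110αhep-/- mice, where 24.0%, 16.0%, 12.3% and 10.8% of all genes were called. By genotype 0, 1, 1 and 0 were higher and 7, 6, 6 and 10 lower in p110αhep-/- mice in the CTRL fed, CTRL fasted, HFD fed and HFD fasted settings, where 21.7%, 24.9%, 33.0% and 36.9% of all genes were called in either direction. The median differences of the 17 genes in these 4 settings were -0.18, -0.0144, -0.17 and -0.28, beside medians of 0.02, 0.01, 0.03 and 0.03 over all genes.

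The ketogenesis list was represented by Bdh2, a cytosolic dehydrogenase of the same reaction as Bdh1. It fell with fasting in p110αhep-/- mice by -1.05 on CTRL (adjusted p = 5.08e-08) and by -0.60 on HFD (adjusted p = 0.00213), where in p110αhep+/+ mice its differences were -0.33 (adjusted p = 0.0566) and -0.18 (adjusted p = 0.334). By genotype Bdh2 was lower in fasted p110αhep-/- mice, by -0.90 on CTRL (adjusted p = 1.78e-06) and by -0.70 on HFD (adjusted p = 0.000154). On CTRL the fasting difference of Bdh2 thus had the opposite sign to that of Bdh1 in both genotypes.

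Of the genes that use acetoacetate, Aacs, the cytosolic synthetase that returns it to acetoacetyl-CoA for lipid synthesis, fell with fasting by -2.18 and -2.13 on CTRL in p110αhep+/+ and p110αhep-/- mice (4.53-fold in the former) and by -1.10 in p110αhep+/+ mice on HFD. In p110αhep-/- mice on HFD its difference was 0.01 (adjusted p = 0.986). Aacs was also lower in p110αhep-/- mice in all 4 settings, by -0.80, -0.76, -1.95 and -0.84. Oxct1, the CoA transferase of organs that burn ketone bodies, fell with fasting in p110αhep-/- mice on CTRL by -0.37 (adjusted p = 0.00486).

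Several thiolases that cleave chains in fatty acid oxidation also rose with fasting on CTRL. Hadhb, the thiolase subunit of the mitochondrial trifunctional protein, rose by 0.66 and 1.06 in p110αhep+/+ and p110αhep-/- mice, and the peroxisomal Acaa1a by 0.57 and 1.11. The other probe of Acaa1a was not called in p110αhep+/+ mice on CTRL (0.22, adjusted p = 0.113), and on HFD it fell by -0.37 (adjusted p = 0.00481) where the brighter probe rose by 0.33 (adjusted p = 0.00125). Acaa1b rose by 1.19 in p110αhep-/- mice, while in p110αhep+/+ mice its difference was 0.20 on CTRL (adjusted p = 0.221) and it fell by -0.46 on HFD (adjusted p = 0.00222). On CTRL Acaa2, the mitochondrial enzyme, rose by 0.20 and 0.30 in p110αhep+/+ and p110αhep-/- mice. Acat3, a cytosolic thiolase, fell with fasting in p110αhep-/- mice by -0.41 on CTRL and -1.03 on HFD. The diet by fasting interaction in p110αhep-/- mice was called negative in 5 of 5 thiolases, with a median of -0.89, while 2 of 2 genes that use acetoacetate were called positive and none of the 9 transport genes was called, beside calls in 8.0% of all genes (764 positive and 875 negative). In p110αhep+/+ mice 2 of 5 thiolases were called negative, with a median of -0.24 over the 5, 1 of 2 genes that use acetoacetate was called positive and 0 of 9 transport genes were called, beside calls in 2.36% of all genes.

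The relatives of Slc16a1 did not share 1 direction with fasting. With HFD 4, 6, 5 and 4 of the 9 transport genes were called higher and 0 lower in fed and fasted p110αhep+/+ and fed and fasted p110αhep-/- mice. Of all genes 24.0%, 16.0%, 12.3% and 10.8% were called there in either direction. The 9 include Slc16a8 and Emb, which lay near background. Slc16a6 fell with fasting in all 4 settings, by -0.91 and -0.92 in p110αhep+/+ mice on CTRL and HFD and by -0.73 and -0.95 in p110αhep-/- mice. Slc16a7, which encodes MCT2, rose by 0.45 in p110αhep+/+ mice on CTRL and by 0.56 and 0.48 in p110αhep-/- mice on CTRL and HFD. Of its 4 further probes, 3 were called higher in the same comparisons and 1 was not called, at 0.10, 0.09 and -0.09. Slc16a13 was lower in p110αhep-/- mice in all 4 settings, by -1.19, -0.95, -0.80 and -0.96. Slc16a3, which encodes MCT4, fell with fasting in p110αhep-/- mice on HFD by -0.77 and was higher in HFD fed p110αhep-/- than p110αhep+/+ mice by 0.82, and Slc16a11 was lower in p110αhep-/- mice by -0.58, -0.49 and -0.44 in CTRL fed, CTRL fasted and HFD fasted mice. Bsg, basigin, the chaperone that brings MCT1 to the membrane, fell with fasting in p110αhep-/- mice on HFD by -0.20 (adjusted p = 0.0256), and was lower in p110αhep-/- mice by -0.23 in CTRL fed, -0.23 in CTRL fasted and -0.25 in HFD fasted mice. Emb, embigin, a related chaperone, had a fasting difference of -0.25 in p110αhep+/+ mice on CTRL and genotype differences on HFD of -0.33 fed and -0.41 fasted. It lay near background, well above it on 5 of 6 arrays in each p110αhep+/+ group on HFD and on 1 to 4 in the other groups. Emb thus passed the filter only through the groups where its means were highest (5.88 and 5.70), and its differences are not read as a result. None of the 122 calls of these lists changed direction under the 4 other scalings and signals tried, and 110 to 121 of them were still called.

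**Figure D4:**
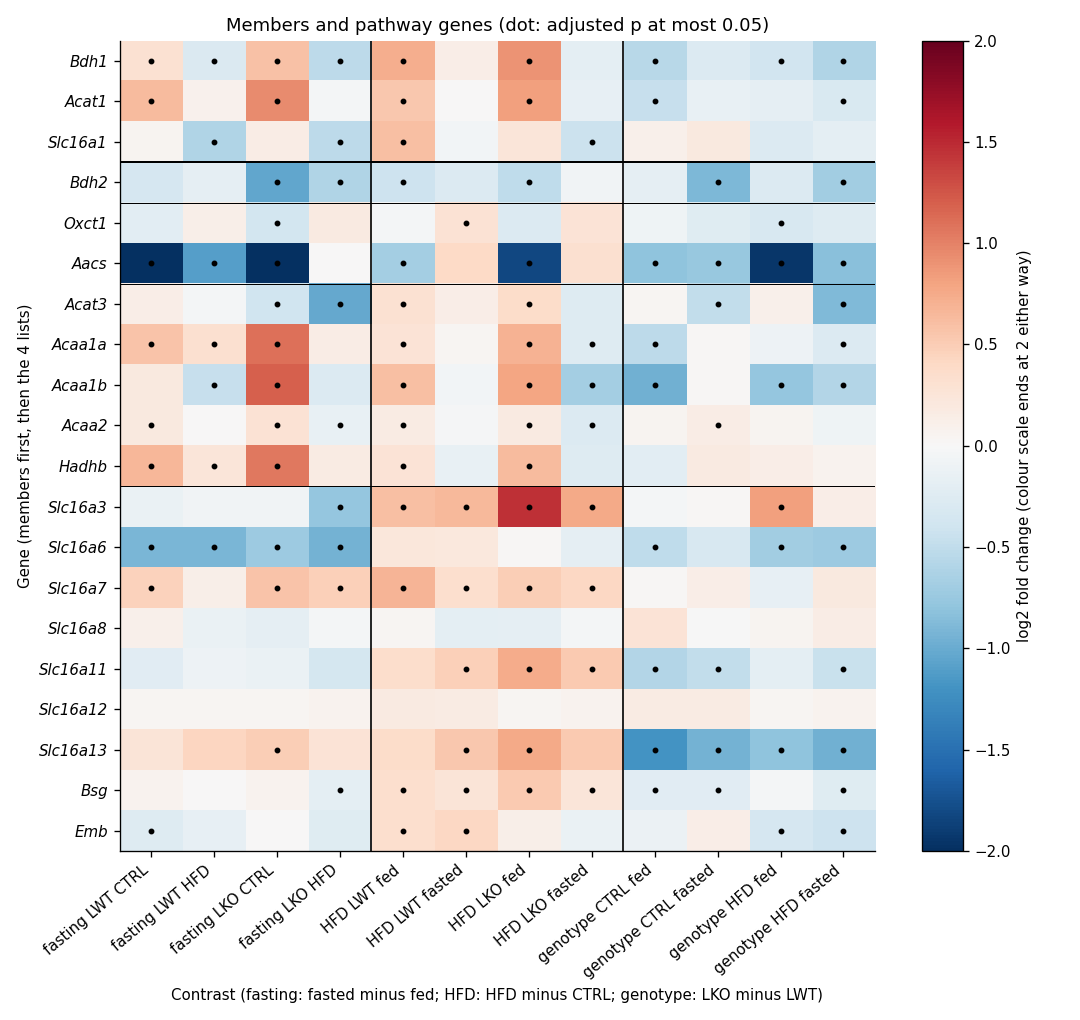
Log2 fold changes (colour scale) of the 3 members and 17 pathway genes (rows) in the fasting, HFD and genotype comparisons (columns, LWT for p110αhep+/+ and LKO for p110αhep-/-), with a dot where the adjusted p was at most 0.05. Hadhb and Acaa1a rise with Acat1 in both CTRL fasting columns (0.66 and 1.06, and 0.57 and 1.11), and Slc16a13 is lower in all 4 genotype columns (-1.19 to -0.80).

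Genes whose levels resembled each member over the 48 arrays were found by Pearson correlation over 11895 genes, as a description, since the arrays share groups, slides and batches. Among the 3 genes closest to Bdh1 were Atp9a (r = 0.893, Spearman rho = 0.877) and Lonp2 (r = 0.884). The closest to Acat1 were Ech1 (r = 0.958) and Eci1 (r = 0.95), auxiliary enzymes of unsaturated fatty acid oxidation. Slc16a1 was closest to Spon2 (r = 0.80), Stk40 (r = 0.716) and Mmadhc (r = 0.713). After the group means were removed, r was 0.853 for Bdh1 with Atp9a, 0.858 for Acat1 with Ech1 and 0.677 for Slc16a1 with Spon2. Between the members r was 0.802 for Bdh1 and Acat1, 0.462 for Bdh1 and Slc16a1 and 0.252 for Acat1 and Slc16a1.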

How the data were processed

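Liver RNA (200 ng a mouse, Cy3) was run on mouse expression arrays of Agilent (SurePrint G3) and read with Feature Extraction 10.10.1.1. The authors deposited these scanner files, which hold linear intensity values per spot, and a table of log2 values that the authors had normalized. Probe positions are in mm9. In the main analysis, log2 of the median spot intensity was taken, outlier spots were dropped, and repeated spots of a probe were averaged. Probes well above background on at least 5 of 6 arrays of a group were kept (30793 of 56605). The washing batch was removed before quantile normalization, after the study's methods. Protecting the group means in that step was a choice made here. Limma 3.58.1 (R 4.3.3) with array weights was fitted to all 48 arrays, with a Benjamini-Hochberg adjusted p of at most 0.05 per comparison over all kept probes called. The script was tested on simulated data. Precision is limited by 6 arrays a group. Alternatives covered signal, scaling, filter, batch, block, weights, threshold, the deposited log2 values (32437 probes) and single arrays. The members and lists were chosen with earlier results of these data known. Named were all member probes, list genes called in a fasting or genotype comparison, and, from the 3 genes most like each member, those reported. No p-value or fold change of the authors was used. Some pathway genes are not reported here and were left out of the lists, figures and counts.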

Additional observations from a re-analysis of the deposited data

Results flagged for a closer look

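The response to fasting differed between the diets for each of the 3 genes, by limma's test of the difference itself. The fasting response on HFD minus that on CTRL was -0.60 in p110αhep+/+ and -1.10 in p110αhep-/- mice for Bdh1, -0.54 and -0.99 for Acat1, and -0.66 and -0.67 for Slc16a1 (log2). Whether these differences themselves differed between the genotypes was not tested. By Dixon's test, run in 24 groups of member values, no gap passed the critical value. The test measures the gap to the nearest mouse, so it could not mark mice 5 and 6 of the CTRL fasted p110αhep-/- group, which lay together above the other 4 for Bdh1 and Acat1.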

How the results depend on the processing

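The numbers of called member comparisons were 8 of 12 for fasting, 6 of 12 for HFD, 5 of 12 for genotype and 6 of 18 for the interactions. Within washing batch 1, with 3 arrays a group, fasting kept 5 calls and the interactions 2. Within washing batch 2, fasting had 5, HFD 3, genotype 3 and the interactions 0, with 6 of the 18 interactions at an unadjusted p under 0.05. Requiring a fold change over 1.5 left 3 for fasting and 1 for genotype. The interactions had 3 calls without array weights and 3 without the filter on dim probes. Leaving out single arrays gave 7 to 8 calls for fasting, 5 to 6 for HFD, 5 to 6 for genotype and 3 to 6 for the interactions, with 3 without CTRL fasted p110αhep+/+ mouse 5. Of the 828 other values, 760 kept their direction and side of the threshold, 49 lost a call, 5 gained one and 14 changed sign. The cause was not tested.

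The values that changed sign were small, and none was called. For the fasting effect on Acat1 in p110αhep-/- mice on HFD these were 0.0056 with the processed signal, 0.021 with median scaling, 0.0521 within batch 2 and 0.0556 without array weights, and -0.10 to 0.0264 on leaving out single arrays. For the HFD effect on Acat1 in fasted p110αhep+/+ mice they were -0.0915 with the processed signal, -0.0627 with median scaling, -0.0021 with the washing batch as a block, -0.0564 within batch 2 and -0.016 with the slide as a block, and -0.0475 to 0.0665 without single arrays. For Slc16a1 they were 0.10 within batch 1 for HFD in fasted p110αhep+/+ mice (-0.17 to 0.0624 without single arrays), 0.0227 within batch 2 for genotype in HFD fed mice, -0.071 within batch 1 for genotype by fasting on CTRL (-0.0426 to 0.20) and -0.13 within batch 2 for genotype by fasting on HFD (-0.0718 to 0.17). The fasting effect on Slc16a1 in p110αhep+/+ mice on CTRL was -0.0602 to 0.18 without single arrays.

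Replicate numbers did not pair the mice: same-numbered arrays of different groups had deviations from their group means correlated at 0.02 on average (168 pairs, -0.34 to 0.32). With the replicate number as a block, the counts were 7 for fasting, 6 for HFD, 5 for genotype and 4 for the interactions. The HFD effect on Acat1 in fasted p110αhep+/+ mice was then -0.0019. Without the array weights, the diet by fasting calls in p110αhep+/+ mice were lost for all 3 genes (adjusted p = 0.0823, 0.0635 and 0.104 for Bdh1, Acat1 and Slc16a1). No setting moved the median of all genes by over 0.1. The 4 member probes were well above background on all 48 arrays. With 1 array a mouse, the spread between animals and technical spread cannot be told apart.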
